A study of Mus musculus with 3 samples.

Results

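Conventional CD4 T cells are the helper cells of the immune system, and 140 of them were found among 8443 immune-enriched cells from 4 mouse brains that carried metastases. They were chosen from the 1201 cells of the authors' T cell cluster (cluster 2) by their RNA: at least 1 Cd4 UMI (a barcoded RNA molecule), no Cd8a UMI and no Foxp3 UMI, in the authors' depth-corrected values. Of these 140 cells, 23 and 76 came from the heterozygous brains and 24 and 17 from the homozygous brains. Values of Cd4, Cd8a, Foxp3 and of the cluster therefore chose the cells and are given below only as a description.

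CD4 T cells recognise peptides on class II antigen-presenting molecules and help other cells through CD40 ligand and through cytokines. Naive and central memory cells keep the homing receptors for lymph nodes, whereas effector cells lose them, enter tissue and may take on a T helper 1, 2 or 17 programme, each under its own transcription factor and with its own cytokines. Interferon signals reach T cells through STAT transcription factors, which switch on a common set of antiviral genes.

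Each group consisted of female C57Bl/6 mice aged 2 to 3 months. The heterozygous group (2 brains) was Cx3cr1+/- and the homozygous group (2 brains) was Cx3cr1-/-, so that every mouse lacked at least 1 functional copy of Cx3cr1, which encodes the fractalkine receptor. All 4 mice had received E0771 mouse mammary tumour cells into the carotid artery about 2 weeks earlier. After perfusion, 1 hemisphere per mouse was digested, and layers of 70, 37 and 30% Percoll served to enrich immune cells. Cells were stained with 35 barcoded antibodies, marked with a hashtag antibody for each brain and captured in 1 pooled droplet library (10x 3′, version 3). The genotype of a cell rests on its hashtag, and 2 brains per genotype limit every comparison between genotypes. Brains are the replicates throughout, as cells of 1 brain share their source. The question put to the cells is how they differ when Cx3cr1 is lost.

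The hashtags were checked against Cx3cr1 in the microglia-like cluster, where its level reached 1363 and 1464 counts per 1000000 corrected UMIs (CPM) in heterozygous brains and 114 and 31.6 CPM in homozygous ones. The conventional CD4 cells themselves held almost no Cx3cr1, with 11.5 and 7.84 CPM in the heterozygous brains and 0 in both homozygous brains, from 4 of 140 cells. Barcodes shared with the table of naive brains (1138 of 9581, among them 8 that met the RNA rule) had been left out. All cells carried the authors' singlet label. The median depth of the 140 cells was 5131 raw UMIs, with 4229 and 5788 in heterozygous brains and 5398 and 4385 in homozygous ones, and the median after the authors' correction was 11603. The correction raised the number of detected genes in 130 of the 140 cells, so a UMI below means a corrected UMI, which may stand where the raw count was 0.

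Levels of T cell markers are given as a description, because the cells were taken from a cluster that is itself rich in them. Cd3e, a chain of the T cell receptor complex, stood at 398 and 397 CPM in heterozygous brains and at 371 and 357 CPM in homozygous ones. Trac, the constant part of the receptor's alpha chain, stood at 639, 688, 695 and 632 CPM in the same order. A UMI of Cd3e and of Trac was each found in 90.7% of the cells, against 3.52% and 3.36% of 654 microglia-like cells, whose median depth of 8470 raw UMIs was higher. Cd28, the main costimulatory receptor of T cells, was found in 82.9% of the cells and in 2.75% of microglia-like cells. Its levels of 321, 322, 252 and 326 CPM overlapped between the genotypes. Cd8b1, the partner of Cd8a, which the rule did not use, stood at 0, 3.36, 0 and 5.18 CPM, against a mean of 647 CPM (SD 57.0, n = 4 brains) in CD8 cells of the same cluster. Trdc, the constant part of the gamma-delta receptor, was found in 6 of the 140 cells and in 444 of the 1061 other cells of the cluster. Markers of alpha-beta T cells were thus present in all 4 brains, and Cd8b1 was near 0.

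The authors' antibody gate, which reads surface protein and was not used by the RNA rule, offers a second view of the same cells. The gate rests on antibodies whose tags were sequenced beside the RNA, and brains were told apart by hashtags of the same kind. The tags of the 3 T cell antibodies and of the hashtags of both heterozygous (M-HTO-3, M-HTO-4) and both homozygous brains (M-HTO-7, M-HTO-8) are shown because they define the gate and the replicates; all letters are in capitals because the whole tag is read.
CD3: GTATGTCCGCTCGAT
CD4: AACAAGACCCTTGAG
CD8a: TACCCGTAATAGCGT
M-HTO-3: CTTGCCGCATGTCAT
M-HTO-4: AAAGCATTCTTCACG
M-HTO-7: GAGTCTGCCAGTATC
M-HTO-8: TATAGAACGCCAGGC

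Of the 140 cells, 104 (74.3%, exact binomial 95% interval 66.2 to 81.3%) lay in the CD4+ gate and 0 in the CD8+ gate. The 0 allows a share of up to 2.60% of all 140, cells without a gate entry included. A further 2 lay in neither gate and 34 had no gate entry. Entries that only repeated the name of the gate column were read here as neither gate, and blanks as no entry. By brain, 20 of 23 and 54 of 76 heterozygous cells and 23 of 24 and 7 of 17 homozygous cells were in the CD4+ gate. Homozygous brain 2 had the lowest share, with 9 of its 17 cells lacking an entry. The intervals cover counting error only, here and below.

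The threshold of 1 Cd4 UMI can be read against the gate. Of the 54 cells just inside it, with exactly 1 Cd4 UMI, 44 lay in the CD4+ gate and 10 had no entry. Among cells with 2 Cd4 UMIs 25 of 35 lay in the CD4+ gate, 2 in neither gate and 8 had no entry. With 3 or more it was 35 of 51, and 16 had no entry. Just outside the threshold stood 690 cells of the cluster with none of the 3 transcripts, of which 72 (10.4%) lay in the CD4+ gate, 40 in the CD8+ gate, 431 in neither and 147 had no entry. Read from the gate, 250 cells of the cluster were CD4+, and 104 of them (41.6%) met the RNA rule, 42 held Foxp3, 72 held none of the 3 transcripts, 31 held another combination of the 3 and 1 held Cd8a alone. Foxp3-positive cells with Cd4 made up 11.1 and 4.63% of the gate in the heterozygous brains and 33.8 and 30.8% in the homozygous brains, so the gate mixed conventional with Foxp3-positive cells in unequal parts. The RNA rule gave 140 cells and the gate 250, which overlap in 74.3% of the former and 41.6% of the latter.

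**Figure D1:**
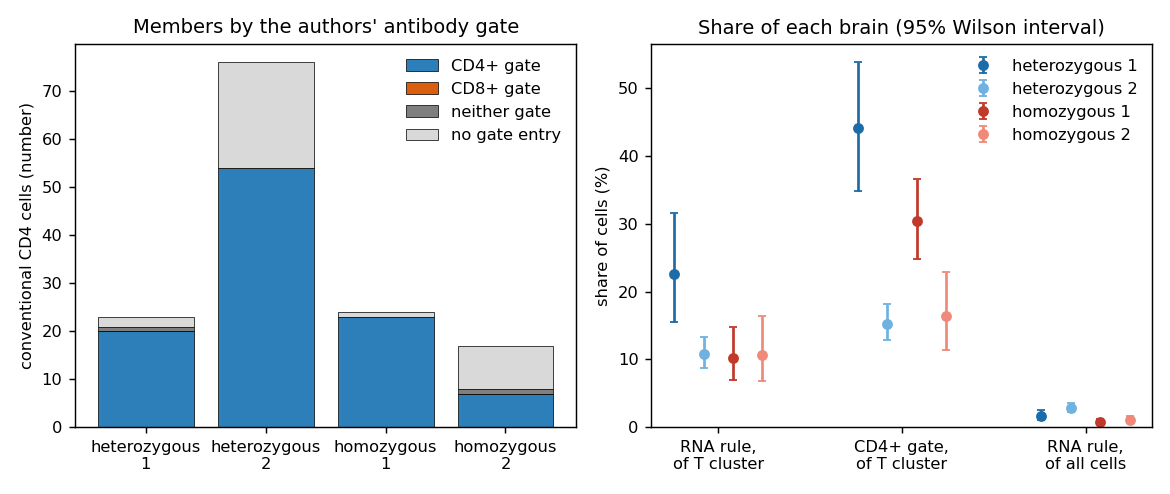
Left, number of conventional CD4 cells per brain, divided by the authors' antibody gate; no cell lay in the CD8+ gate. Right, share of each brain's cells in percent by 3 definitions, 1 point per brain with its 95% Wilson interval; heterozygous brain 1 stands highest by the RNA rule and by the gate within the T cell cluster (22.5 and 44.1%).

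Conventional CD4 cells made up 22.5% (Wilson 95% interval 15.5 to 31.6%) and 10.8% (8.69 to 13.3%) of the T cell cluster in the heterozygous brains. In the homozygous brains they made up 10.3% (6.99 to 14.8%) and 10.7% (6.78 to 16.5%). Heterozygous brain 1 stood apart from the other 3, whose intervals overlapped widely. The genotype means were 16.7% ± 8.33 and 10.5% ± 0.308 (SD, n = 2 brains each), a difference of -6.18 percentage points. The exact permutation p was 0.33, two-sided and the smallest that 2 against 2 brains can give, so the design could not reach 0.05.

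That difference rested on heterozygous brain 1: without it the difference was -0.291 points, and without heterozygous brain 2 it was -12.1. Cells with a Trdc UMI, which share the denominator, made up 11.4% of the other cells of the cluster in heterozygous brain 1 and 47.1, 37.6 and 41.5% in heterozygous brain 2 and homozygous brains 1 and 2, and their part in the difference was not tested. Of all cells of a brain, conventional CD4 cells were 1.70 and 2.91% in heterozygous brains and 0.821 and 1.09% in homozygous ones. All cells of a brain had a median depth of 8199.5 and 7823.5 raw UMIs in heterozygous brains and 71585 and 19767.5 in homozygous ones. This denominator thus differed between the genotypes, and its part in the lower shares was not tested. Of cells with a Cd4 or Cd8a UMI, conventional CD4 cells were 45.1 and 30.0% against 25.5 and 25.4%. By the antibody gate the genotypes overlapped, with 44.1 and 15.3% against 30.3 and 16.4% (exact permutation p = 1, two-sided, n = 2 brains each). They overlapped too among cells of 3000 to 10000 raw UMIs (-7.44 points) and with a threshold of 2 Cd4 UMIs (-2.37 points).

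The programme of these cells is described first by its levels. Among genes of naive and central memory cells, Tcf7, a transcription factor of resting T cells, stood at 168, 193, 209 and 155 CPM in heterozygous brains 1 and 2 and homozygous brains 1 and 2. Ccr7, the chemokine receptor that guides T cells to lymph nodes, stood at 57.4, 101, 93.6 and 130 CPM. These are 3′ UMI levels, which do not scale with transcript length. The brains were close to one another in Tcf7 and overlapped between the genotypes in both genes.

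Genes of effector and activated cells were present in all 4 brains. Crip1, a small LIM-domain protein, had 2008, 1395, 1436 and 1067 CPM, and Itgb1, the beta-1 integrin of tissue-homing T cells, 471, 775, 583 and 813 CPM. Icos, a costimulatory receptor induced on activated T cells, was found in 92.9% of the cells and in 2.45% of microglia-like cells, at 712, 608, 687 and 616 CPM. Its levels varied little over the 4 brains. Tnfrsf4 (OX40), another receptor of activated T cells, was found in 43.6% of the cells, at 363, 284, 637 and 269 CPM, with homozygous brain 1 the highest. Cd40lg, the ligand through which helper cells license B cells and antigen-presenting cells, was found in 42.1% of conventional CD4 cells, in 2.45% of CD8 cells and in 0.153% of microglia-like cells.

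Transcription factors of the helper programmes were read next. Tbx21, the T helper 1 factor, stood at 3.83, 10.1, 10.8 and 5.18 CPM. Gata3, which T helper 2 cells need and other T cells hold at a lower level, stood at 53.6, 62.7, 75.6 and 72.5 CPM. Rora, a nuclear receptor of T helper 17 and other effector cells, stood at 249, 204, 273 and 249 CPM. Bcl6 and Cxcr5 of follicular helper cells did not exceed 11.2 CPM in any brain.

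Cytokine RNA came from few cells. Il17a, the hallmark cytokine of T helper 17 cells, stood at 344, 207, 295 and 0 CPM, from 15 of the 140 cells (6, 4, 5 and 0 by brain). It was found in 10.7% of conventional CD4 cells, 2.04% of CD8 cells and 1.07% of microglia-like cells. Homozygous brain 2, with 17 cells, had none. Of those 15 cells, 13 lay in the CD4+ gate and 1 held a Trdc UMI, and the 3 richest gave 63.9% of the 357 Il17a UMIs. Il22, a partner cytokine, came from 2 cells, and Il17f from 9. Ifng, the hallmark of T helper 1 cells, was found in 18 cells, at 11.5, 22.4, 54.0 and 104 CPM. Il2, the T cell growth factor, came from 8 cells, 1 of which gave 81.0% of its 100 UMIs. Il4 came from 2 cells, and Il5 and Il13 were at 0 in all of them, which allows a share of cells with a UMI of up to 2.60%.

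**Figure D2:**
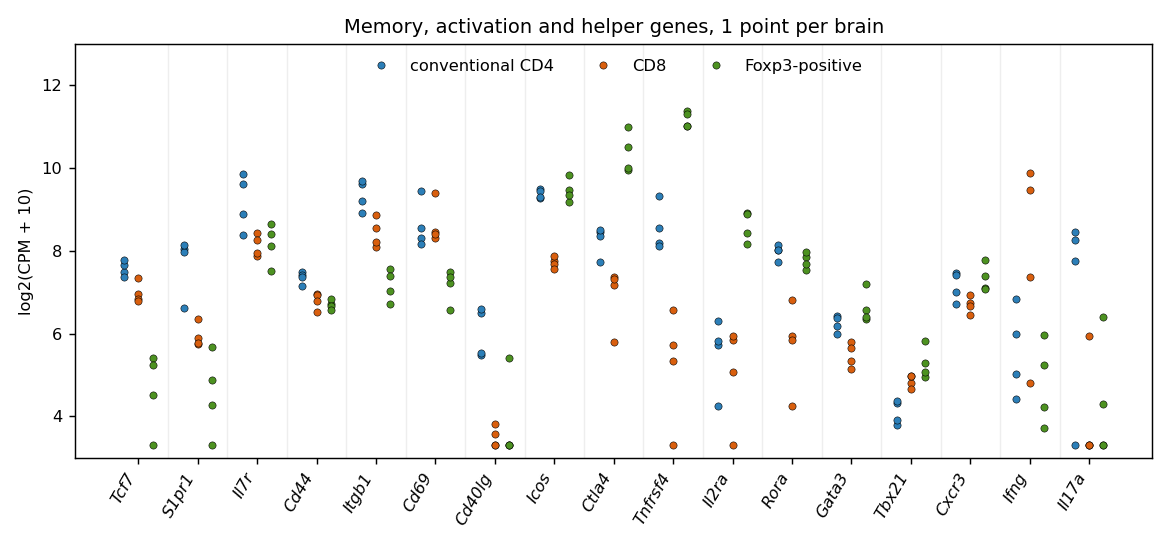
Level of 17 memory, activation and helper genes as log2(CPM + 10), 1 point per brain, in conventional CD4 cells, CD8 cells and Foxp3-positive cells of the T cell cluster; the lowest possible value, 0 CPM, lies at the foot of the plot. Conventional CD4 cells stand above CD8 cells in every brain for Cd40lg, Icos and Tnfrsf4, and Foxp3-positive cells stand above both for Tnfrsf4 and Ctla4.

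Against CD8 cells of the same cluster, conventional CD4 cells carried more RNA of Maf, Rora, Tnfrsf4, Cd40lg and Icos, and less RNA of cytotoxic proteins. CD8 cells were chosen in the mirror way (at least 1 Cd8a UMI, no Cd4 and no Foxp3 UMI), which gave 245 cells (19, 143, 44 and 39 by brain) with a median depth of 7180 raw UMIs. Both sets came from the same brains, so brain was a block in the limma fit of log2(CPM + 10) values, and Cd4, Cd8a and Foxp3 were left out. Of 6367 genes tested, 214 (3.36%) passed an adjusted p under 0.05, 122 (1.92%) higher and 92 (1.44%) lower in conventional CD4 cells, and 208 had the same sign in all 4 brains. Differences below are on this scale, which understates those of low genes, as conventional CD4 minus CD8.

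Maf had the largest positive difference. This transcription factor, which drives cytokine genes in helper cells, stood at 291, 253, 291 and 223 CPM in conventional CD4 cells and between 7.63 and 22.1 CPM in CD8 cells of the same brains. No brain overlapped, and the difference was 3.44 (SE 0.23, limma adjusted p = 1.25e-07). Tnfrsf4 stood at 363, 284, 637 and 269 CPM against 0, 42.5, 30.5 and 85.7 CPM. It was higher in 4 of 4 brains, by 3.31 (SE 0.40, limma adjusted p = 0.000135).

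Cd40lg stood at 34.4, 80.6, 86.4 and 36.3 CPM against 0, 4.08, 1.91 and 0 CPM. It was higher in 4 of 4 brains, by 2.52 (SE 0.35, limma adjusted p = 0.000463). Icos stood at 712, 608, 687 and 616 CPM against 208, 196, 179 and 225 CPM, higher by 1.65 (SE 0.12, limma adjusted p = 3.29e-07). The same-brain gap of Icos was far wider than the spread over brains in either set. Rora was higher by 2.27 (SE 0.31), with means of 244 and 52.5 CPM.

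The other genes among the 10 largest rises with 1 sign in 4 brains were of mixed kinds. They were Tmem176b (3.36), Tmem176a (2.60), Serpinb1a (2.57), an inhibitor of granule proteases, Ramp3 (2.07), a partner protein of calcitonin-type receptors, the interferon-induced GTPase Iigp1 (2.06) and Ltb4r1 (1.99), the leukotriene B4 receptor. All 6 were higher in 4 of 4 brains. Tmem176b and Tmem176a were spread widely, at 62.7 to 383 and 82.8 to 348 CPM in conventional CD4 cells, and heterozygous brain 1 was the highest for both.

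The cytotoxic list had 12 of its 14 members tested, and 11 of them were lower and 0 higher in conventional CD4 cells, with a median of -2.87 against 0.01 over all genes tested. Prf1, the pore-forming protein perforin, stood at 0, 7.84, 0 and 0 CPM in conventional CD4 cells and at 40.7, 206, 158 and 148 CPM in CD8 cells. It was lower in 4 of 4 brains (-3.50, SE 0.34, limma adjusted p = 1.48e-05). Nkg7, a protein of cytotoxic granules, stood at 149, 450, 133 and 326 CPM against 1261, 2006, 2134 and 1986 CPM (-2.90). Gzmb, granzyme B, was lower by a smaller margin (-1.64, SE 0.11), with means of 236 and 768 CPM, and 1 conventional CD4 cell gave 39.8% of its UMIs.

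Chemokines and receptors shared with natural killer cells were lower as well. Xcl1, a chemokine for cross-presenting dendritic cells, stood at 0, 15.7, 130 and 0 CPM against 628, 764, 921 and 587 CPM (-4.89, SE 0.37, limma adjusted p = 4.87e-07). In homozygous brain 1 its level came from 1 cell alone, which held 36 (72.0%) of the 50 Xcl1 UMIs of the 140 cells. Ccl5, a chemokine of memory and effector T cells, stood at 941, 1254, 648 and 259 CPM against 4733, 5454, 4578 and 4725 CPM (-2.84). The receptor genes Klrd1 (-3.09), Klrc1 (-3.01), Klre1 (-3.10) and Cd160 (-3.32), the chemokine Ccl4 (-3.15), granzyme A (Gzma, -3.31) and neurogranin (Nrgn, -3.00) completed the 10 largest falls with 1 sign in 4 brains, beside Cd8b1 (-5.78). Ccl4 varied over brains in CD8 cells, from 149 CPM in heterozygous brain 1 to 3750 CPM in heterozygous brain 2.

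**Figure D3:**
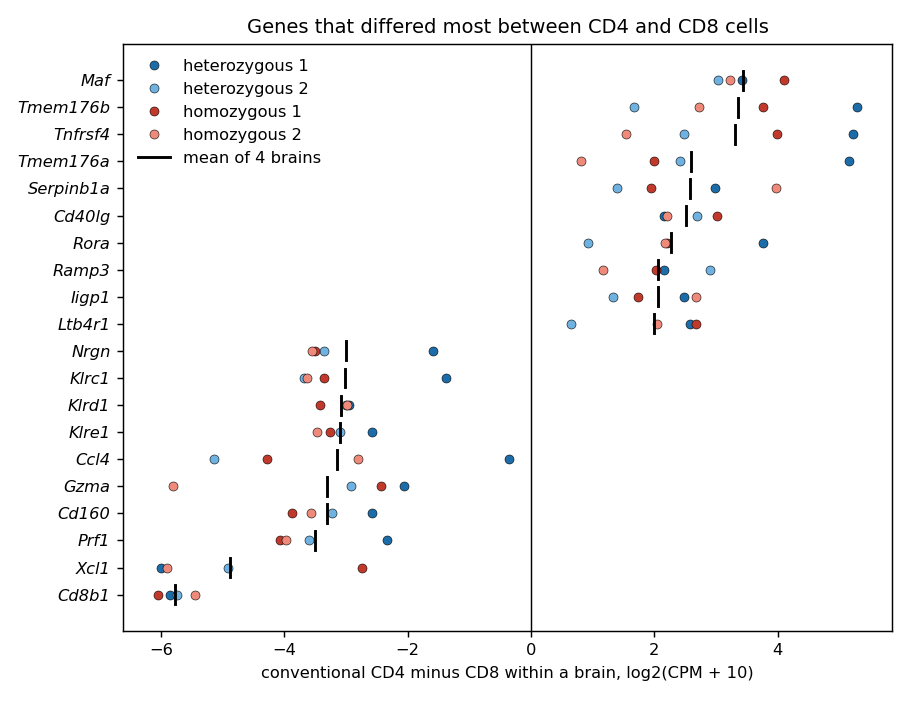
Conventional CD4 minus CD8 within each brain, on the log2(CPM + 10) scale, for the 10 genes with the largest positive and the 10 with the largest negative difference that passed the test with the same sign in 4 brains; each point is a brain and the bar is the mean of 4. Every point of Maf lies above 3, and heterozygous brain 1 lies nearest to 0 for Ccl4 and Klrc1.

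The further lists that separate T cell states were read the same way. In the list of activation and costimulation, 4 of 14 tested genes were higher (Icos, Cd40lg, Tnfrsf4 and Tnfrsf18) and 0 lower, with a median of 0.58. Of 7 regulatory T cell markers tested, 3 were higher (Tnfrsf4, Tnfrsf18 and Ctla4) and 0 lower, with a median of 0.84. All 12 such markers summed to between 1370 and 2357 CPM in conventional CD4 and between 538 and 1113 CPM in CD8 cells. The part of regulatory T cells without a Foxp3 UMI in these differences was not tested. In the naive and central memory list, 3 of 12 were higher and 0 lower, with a median of 0.01. Those 3 were S1pr1, the receptor that lets T cells leave tissue (213 against 53 CPM, 1.74), Il7r, the survival receptor of memory cells (620 against 274 CPM, 1.06), and Klf2, a factor that drives S1pr1 (886 against 651 CPM, 0.46). In the effector and memory list, 4 of 16 were higher (Itgb1, Itgb7, S100a4 and Ahnak) and 2 lower (Ccl5 and Ly6c2). Of the residency list, Rgs1 and Znrf1 were higher and Xcl1 was lower among 9 tested. Cd69, an early activation and residency marker, did not pass, with means of 407 and 411 CPM (-0.03, limma adjusted p = 0.966). Its within-brain differences were -0.16 and -0.15 in heterozygous brains, -0.85 in homozygous brain 1 and 1.03 in homozygous brain 2, so the mean near 0 holds differences of opposite sign.

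Of 6 T helper 17 genes tested, 2 were higher (Il17a and Rora) and 0 lower, with a median of 1.57. Il17a was higher in 3 of 4 brains, by 2.98 (SE 0.61, limma adjusted p = 0.0119), and its level rests on the 15 cells above. Of 13 T helper 1 genes, 0 were higher and 3 lower (Ifng, Eomes and Runx3), with a median of -0.53. Ifng was lower by 2.31 (SE 0.52, limma adjusted p = 0.0196), with means of 47.9 and 451 CPM. Both Eomes and Runx3 are also factors of cytotoxic cells. Ccr4, a receptor of T helper 2 and other effector cells, was higher (1.46) among 3 tested T helper 2 genes. Of 10 inhibitory and exhaustion genes, Ctla4 was higher (305 against 121 CPM, 1.35) and Pdcd1, Nr4a2, Cd160 and Tox were lower, with a median of -1.08.

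Lists not tied to lineage were read next. Of 43 interferon-stimulated genes, 9 were higher and 0 lower, with a median of 0.38; Ifi27l2a stood at 3908 against 2162 CPM (0.83). Of 21 proliferation genes, 5 were lower (Mcm3, Mcm5, Mcm6, Pcna and Stmn1) and 0 higher, with a median of -0.64. Of 22 immediate early and stress genes, which also respond to tissue digestion, Junb, Fos and Dusp1 were higher and Dusp2 was lower. None of 20 oxidative phosphorylation and 15 glycolysis genes passed the test, with medians of -0.04 and 0.14. Of the 20 T cell receptor genes, Cd3d and Trbc2 were lower by 0.54 and 0.48. Beside these, the 9 monocyte and macrophage markers summed to between 601 and 990 CPM in conventional CD4 and between 981 and 2269 CPM in CD8 cells, none of them at 0 throughout, and 1 of 8 tested was higher and 2 lower. Ly6c2 is on that list and is also a gene of memory T cells. The depth gap of 5131 against 7180 raw UMIs moved with the comparison too; between 3000 and 10000 raw UMIs 127 genes passed, 118 of them among the 214.

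With the antibody gate in place of the RNA rule 393 genes passed, 169 of them among the 213 tested of those 214, and 2 turned sign. Without the variance trend 21 passed, and with no filter on low genes 18.

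Foxp3-positive cells with Cd4 numbered 70 (8, 27, 26 and 9 by brain), under the minimum of 10 in 2 brains, so values alone are given. Their median depth was 10317 raw UMIs, above that of the other sets. Regulatory T cell genes stood lower in conventional CD4 cells in each brain. Ctla4, an inhibitory receptor, stood at 344, 320, 202 and 352 CPM against 985, 1442, 1008 and 2018 CPM in Foxp3-positive cells. Il2ra, the high-affinity chain of the interleukin-2 receptor, stood at 68.9, 8.96, 43.2 and 46.6 CPM against 275, 474, 462 and 338 CPM. Ikzf2 (Helios) stood at 360, 134, 277 and 259 CPM against 1440, 1244, 1203 and 1145 CPM. The sets did not overlap in any of the 3 genes.

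In the other direction, Tcf7 stood at 155 to 209 CPM in conventional CD4 cells and at 0 to 32.6 CPM in Foxp3-positive cells. S1pr1 stood at 88.1 to 273 against 0 to 41.5 CPM, and Itgb1 at 471 to 813 against 95.3 to 179 CPM. Cd40lg stood at 34.4 to 86.4 against 0 to 32.6 CPM. All 4 genes were higher in conventional CD4 cells in each of the 4 brains. The 12 regulatory T cell markers together summed to 2249, 1370, 2357 and 1746 CPM in conventional CD4 cells and to 8089, 8329, 8420 and 9292 CPM in Foxp3-positive cells. Of these 12, Foxp3, by the rule, and Gpr83 were at 0 in all conventional CD4 cells. A regulatory T cell without a Foxp3 UMI cannot be told apart from a conventional cell by the rule.

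Between the genotypes, 3 genes passed the test in conventional CD4 cells, and all were higher in the homozygous brains: the interferon-stimulated genes Isg15 and Ifi27l2a, and Dusp2, a phosphatase induced in activated T cells. They were 3 of 6251 genes tested (0.048%) with limma on log2(CPM + 10). An unadjusted p under 0.05 was found for 256, a share below the 0.05 expected if no gene differed. The levels came from 23 and 76 cells of heterozygous and from 24 and 17 cells of homozygous brains.

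Isg15 encodes a ubiquitin-like protein that is attached to other proteins after interferon signalling. Its promoter is shown, from RefSeq (GRCm38.p6), because it holds matches to a motif known from promoters of such genes; capitals mark matches to GAAA, any 2 bases and GAAA again, searched on both strands, in the 250 bases before the start at chr4:156200819-156201068 on the minus strand. The 3 matches overlap and lie between 78 and 57 bases before the start. The Dusp2 promoter (chr2:127335909-127336158, plus strand) is shown beside it and holds no match in its window; Ifi27l2a, which passed too, was not searched.
Isg15: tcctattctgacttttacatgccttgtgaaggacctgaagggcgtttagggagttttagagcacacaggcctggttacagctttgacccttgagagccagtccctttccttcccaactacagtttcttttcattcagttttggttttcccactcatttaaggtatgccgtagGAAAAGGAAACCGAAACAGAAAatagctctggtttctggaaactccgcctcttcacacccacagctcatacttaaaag
Dusp2: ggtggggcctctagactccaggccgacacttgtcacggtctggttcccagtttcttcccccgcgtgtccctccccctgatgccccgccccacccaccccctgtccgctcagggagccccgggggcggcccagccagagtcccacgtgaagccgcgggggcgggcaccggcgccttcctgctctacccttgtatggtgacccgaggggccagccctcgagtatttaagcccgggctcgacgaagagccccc

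Isg15 stood at 264 and 244 CPM in heterozygous brains and at 630 and 673 CPM in homozygous ones. The pairs of brains were close within each genotype and far apart between them, by 1.33 on the log2(CPM + 10) scale (SE 0.19, limma adjusted p = 0.0148). A UMI of Isg15 was found in 95.7 and 81.6% of the cells of heterozygous brains and in 79.2 and 88.2% of those of homozygous ones, so the shares overlapped while the summed levels did not. In microglia-like and vascular-like cells the share was 38.7 and 74.4%, the latter with a median depth of 9011 raw UMIs. Pooled over all brains, the richest of 118 cells gave 5.57% of the 592 Isg15 UMIs. This pooled share does not show how much a single cell weighed on the level of its own brain, which was not tested.

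Ifi27l2a, an interferon-induced protein gene, stood at 2502 and 3332 CPM against 5157 and 4642 CPM. The homozygous brains were both higher, by 0.76 (SE 0.13, limma adjusted p = 0.0348), and 137 of 140 cells held a UMI. Dusp2, which inactivates MAP kinases, stood at 119 and 135 CPM against 353 and 399 CPM, higher by 1.49 (SE 0.23, limma adjusted p = 0.0230). It was found in 34.8 and 40.8% of heterozygous and in 45.8 and 52.9% of homozygous cells, and in 39.5% of microglia-like cells. Over all brains, 59 cells held its 327 UMIs, and the richest 3 gave 25.1% of them. The weight of single cells on the Dusp2 level of their own brain was not tested.

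All 3 kept their direction in each of the fits that left out 1 brain. That had to follow, because the brains did not overlap between the genotypes in these genes. Calls in those fits are no check, because a lone brain is then assumed to vary like the other genotype. With no variance trend in limma none passed (0 of 6251, smallest adjusted p = 0.950, 283 at an unadjusted p under 0.05), and with the antibody gate 9 genes passed, Isg15 and Ifi27l2a among them but not Dusp2. Ifi27l2a lost its call in 6 of 14 alternatives, Dusp2 in 3 and Isg15 in 1. These 14 include the fits that left out a brain, and every loss fell in the other alternatives.

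The next 7 genes by p did not pass. Isg20, an interferon-induced exonuclease, stood at 168 and 125 against 407 and 342 CPM (1.30, limma adjusted p = 0.0727). Ccl5 was the only one of the 10 with lower values in the homozygous brains, at 941 and 1254 against 648 and 259 CPM (-1.38, limma adjusted p = 0.197). Iigp1 stood at 45.9 and 31.3 against 119 and 176 CPM (1.69). The brains did not overlap in any of these, as in 2025 of 6251 genes tested (32.4%).

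Mx1, an antiviral GTPase, stood at 7.65 and 10.1 against 54.0 and 124 CPM (2.30), from 16 cells. Ifi203 (398 and 402 against 626 and 813 CPM, 0.82) and Mndal (268 and 306 against 471 and 591 CPM, 0.86) belong to the same family of interferon-inducible DNA sensors. Zfp36l2, which promotes mRNA decay, stood at 746 and 601 against 1000 and 1160 CPM (0.68). The limma adjusted p of these 4 lay between 0.234 and 0.445. Cxcr3, the receptor for Cxcl10, stood at 95.6 and 119 against 166 and 161 CPM (0.57, limma adjusted p = 0.979), and Ifng at 11.5 and 22.4 against 54.0 and 104 CPM (1.69, limma adjusted p = 0.701).

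**Figure D4:**
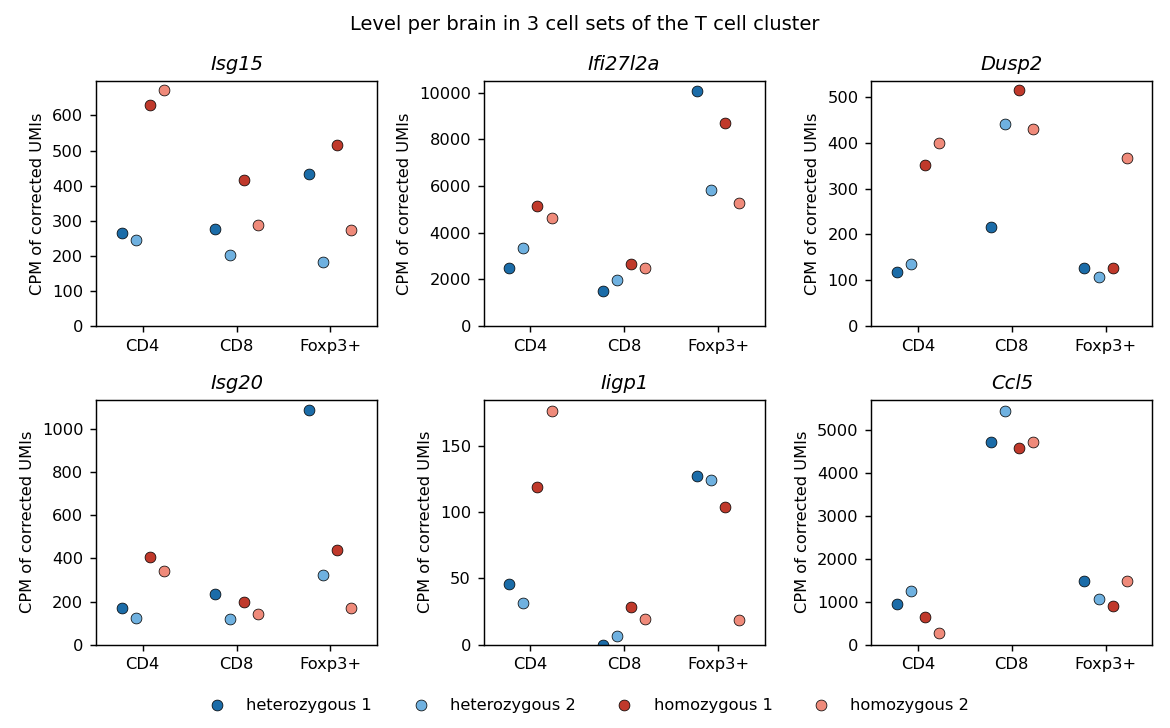
Level of 6 genes in CPM of corrected UMIs, 1 point per brain, in conventional CD4 cells (CD4), CD8 cells and Foxp3-positive cells of the T cell cluster. In conventional CD4 cells both homozygous brains lie above both heterozygous brains for Isg15, Ifi27l2a, Dusp2, Isg20 and Iigp1, and below for Ccl5.

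The whole list of interferon-stimulated genes was then read in conventional CD4 cells. All 43 members were tested, 2 passed (Isg15 and Ifi27l2a), 39 had a positive difference and the median was 0.61, against 0.01 over all genes tested. In 26 of them both homozygous brains lay above both heterozygous brains, which held for 1063 of 6251 genes tested (17%), and in 0 of them both lay below. Over 14 other settings the median ranged from 0.43 to 0.72. The list was chosen with earlier results of these data known, so its direction is a description. The largest were Mx1 (2.30), Irgm1 (2.13) and Iigp1 (1.69), and the 4 members at or below 0 were Stat2 (-0.54), Irf1 (-0.17), Ly6a (-0.17) and Oas1a (-0.01).

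A match to this motif (GAAA, any 2 bases, GAAA, on either strand) in the RefSeq promoter (here 250 bases before to 50 after the start) was found in 20 of the 32 list members with an entry (62.5%), among them Isg15, against 1079 of 27025 genes (3.99%). The 30-base windows below show matches from 5 further members with positive differences, in capitals, as examples of how near the start they lie; TTTC at both ends is the same motif read on the other strand.
Ifi203 (chr1:173942508-173942537): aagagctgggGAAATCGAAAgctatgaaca
Ifit1 (chr19:34640794-34640823): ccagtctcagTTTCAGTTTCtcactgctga
Trim30a (chr7:104465210-104465239): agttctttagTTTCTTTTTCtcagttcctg
Ifit3 (chr19:34583397-34583426): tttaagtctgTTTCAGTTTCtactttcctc
Irgm1 (chr11:48871425-48871454): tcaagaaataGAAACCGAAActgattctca
Differences between the genotypes were 0.82 for Ifi203, 1.00 for Ifit1, 0.94 for Trim30a, 1.04 for Ifit3 and 2.13 for Irgm1, none past the threshold. A match describes the letters and is no proof of a site.

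**Figure D5:**
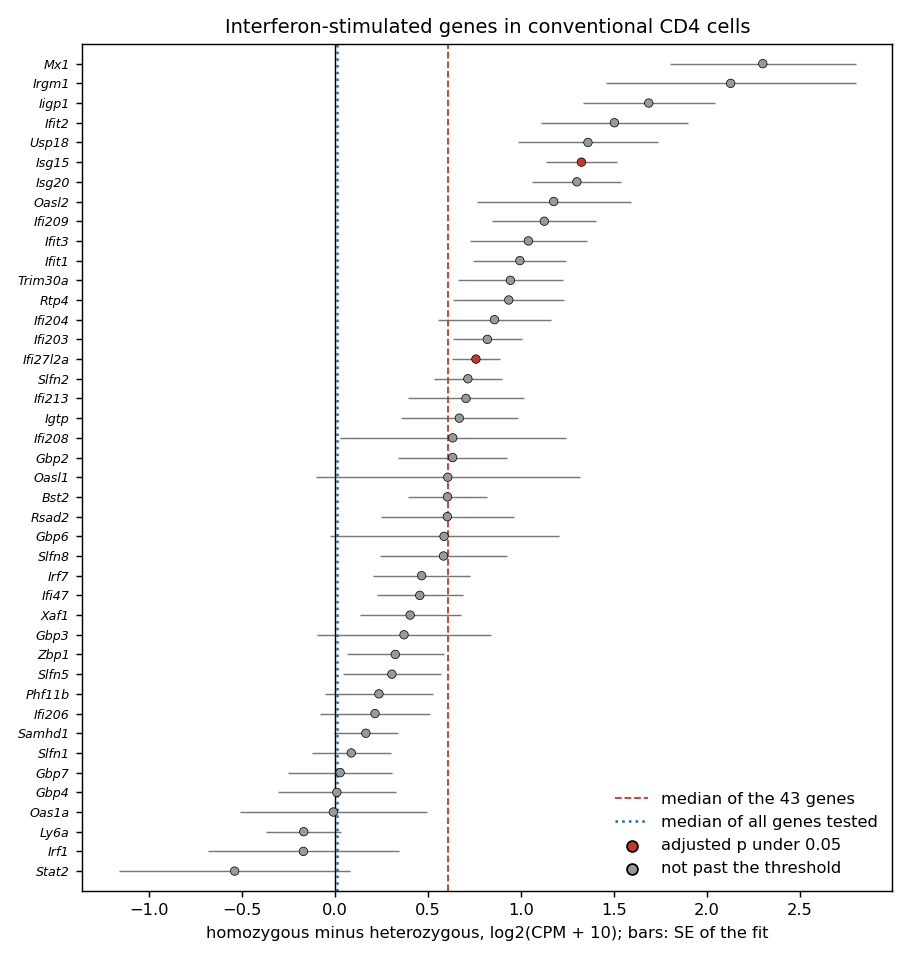
Homozygous minus heterozygous difference of 42 of the 43 interferon-stimulated genes in conventional CD4 cells, on the log2(CPM + 10) scale, with the standard error of the limma fit; red points passed an adjusted p of 0.05. The median of the 43 (0.61, dashed) lies to the right of that of all genes tested (0.01, dotted).

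Other lists were read between the genotypes in the same way. In 6 T helper 17 genes the median was -0.68, with 2 positive and 0 called. In 20 T cell receptor genes the median was 0.02, in 14 activation genes 0.22, in 12 naive and central memory genes -0.32, in 16 effector and memory genes -0.01 and in 15 cytokine receptor genes -0.26, with 0 called in each. Foxp1, a factor that keeps T cells quiescent, stood at 164 and 219 against 112 and 93.3 CPM (-0.84, limma adjusted p = 0.979). Of 22 immediate early and stress genes Dusp2 was called, 18 were positive and the median was 0.11; Jun stood at 237 and 285 against 371 and 544 CPM. Ly6c2 stood at 57.4 and 202 against 245 and 477 CPM, and the 9 monocyte and macrophage markers that include it summed to 601 and 680 against 990 and 943 CPM; their part in the genotype difference was not tested. Microglia markers summed to 260 and 193 against 248 and 233 CPM, with Tmem119 and Sall1 at 0 in all 4 brains. B cell markers summed to 68.9 and 71.6 against 126 and 135 CPM, with Ms4a1 at 0.

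Whether the genotype difference of conventional CD4 cells was larger than that of CD8 cells was tested on the within-brain differences. In the limma fit 0 of 6367 genes passed (0%). Before adjustment 251 lay under 0.05, again a share below the 0.05 expected if no gene differed. With all deposited cells 1 gene passed. Isg15 stood at 276 and 202 against 416 and 287 CPM in CD8 cells. The CD4 minus CD8 difference of Isg15 was -0.06 and 0.26 in heterozygous brains and 0.59 and 1.20 in homozygous ones, a gap of 0.79 (SE 0.27, limma adjusted p = 0.997). For Isg20 the gap was 1.29 (SE 0.32), for Dusp2 0.90 (SE 0.30) and for Ifi27l2a 0.18 (SE 0.15), each with an adjusted p of 0.997 in the same limma fit.

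Side by side, 32 of the 43 interferon-stimulated genes were higher in the homozygous brains in CD8 cells (median 0.24). In Foxp3-positive cells it was 7 of 43 (median -0.51), from 8, 27, 26 and 9 cells and with no test. No share or median over all genes was taken in CD8 or in Foxp3-positive cells, so these counts lack a baseline. Another list moved as well: 14 of 15 glycolysis genes were higher in Foxp3-positive cells (median 0.44). In the within-brain gaps between conventional CD4 and CD8 cells the list had a median of 0.30 against -0.04 over all genes tested, with 32 of 43 positive.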

How the data were processed

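RNA, 35 antibody tags and hashtags were sequenced from 1 pooled library; the tables for metastasis-bearing brains were used. Per the submitters' processing notes, Cell Ranger 3.1, Seurat 3.1.1 and mm10 were used. The authors deposited RNA values on a natural log (ln) scale, taken after adding 1 to UMIs corrected for depth; the exponential minus 1 was whole in 100% of 29262479 nonzero values (relative tolerance 1e-06). The correction can fill zeros and narrows depth, so these values were not given to a count model. Raw UMIs, genes and tag totals per cell are counts in the deposited metadata, and the hashtag margin there is a score by the authors. Clusters, hashtags, genotypes and the CD4+ and CD8+ gates were the authors' categories, whereas neither gate was a reading made here.

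Corrected UMIs were summed per brain and cell set (at least 10 cells in each brain), scaled to 1000000 (CPM) and tested as log2(CPM + 10), mean above 10 CPM, with limma 3.58.1 in R 4.3.3 (eBayes with a trend), Benjamini-Hochberg over all genes, adjusted p under 0.05. The steps were also run on simulated counts with known changes. Those counts had independent noise for each gene and sum, and no single cells that dominate a gene. They therefore do not give the rate of false calls in these data. Python 3.11.15 (numpy 2.4.6, pandas 2.3.3, scipy 1.17.1, matplotlib 3.10.9) did the rest, with exact permutation tests for shares. GEO's labels describe the pooled libraries; brains come from hashtags 3, 4, 7 and 8. No doublet caller was run beyond the authors' singlet label, and hashtags cannot show a pair of cells of 1 brain. The labels do not say whether mice were littermates.

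The members and the lists were chosen with earlier results of these data known. Named genes were Cx3cr1, the rule and marker genes, Cxcr3 and Ifng, then, for genotype, the 10 smallest p (fewer than 5 genes passed), for CD4 against CD8 the 10 largest differences each way past the threshold with 1 sign in 4 brains, and up to 4 members of a list by p, with levels of state genes. Alternatives changed the pseudocount, filter, trend, scaling, weights, shared barcodes, gate, depth, Cd4 threshold and brains. A few genes are not reported here by name.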

Additional observations from a re-analysis of the deposited data

Results flagged for a closer look

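In 3 of the 20 genes named for conventional CD4 against CD8 cells, 1 brain lay far from the other 3; chance alone gives such a gap in about 1 in 20 groups. For Klrd1, homozygous brain 1 had a difference of -3.42 while the others lay close together near -3. For Klrc1, heterozygous brain 1 had -1.38, and for Nrgn, heterozygous brain 1 had -1.59, both nearer to 0 than the other brains. That brain had 19 CD8 cells, the fewest of the 4, and the part of that number in the gap was not tested.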

How the results depend on the processing

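Direction was kept under every alternative run by the 10 genes with the smallest p for genotype and the 20 named for CD4 against CD8. The shares and the interferon list's medians kept it too. Other named genes were not checked in this way, and some other list medians changed sign. Genotype: 3 genes passed, 1 with a pseudocount of 1 CPM, 0 without the trend, 17 with no filter, 9 by the gate, and 12, 18, 86 and 16 without heterozygous brain 1, heterozygous brain 2, homozygous brain 1 and homozygous brain 2; a lone brain is then assumed to vary like the other genotype. Isg15 lost its call in 1, Dusp2 in 3 and Ifi27l2a in 6 of 14 alternatives, all of them alternatives that kept every brain. CD4 against CD8: 214 passed, 101 with a pseudocount of 1 CPM, 18 with no filter, 21 without the trend, 344 with brains weighted by cells, 393 by the gate, 127 at 3000 to 10000 raw UMIs, 120 with 2 or more UMIs, and 120 to 199 when a brain was left out (120 and 131 without homozygous brains 1 and 2); with median-ratio scaling the split was 100 higher and 111 lower. Between the genotypes, list medians ranged from -0.61 to 0.04 for naive and central memory, -0.12 to 0.14 for T cell receptor, -0.12 to 0.08 for effector and memory, -0.01 to 0.37 for activation, -0.04 to 0.25 for immediate early and -1.80 to 0.04 for T helper 17 genes. For CD4 against CD8 they ranged from -0.24 to 0.14 for naive and central memory, -0.06 to 0.49 for effector and memory, -0.14 to 0.13 for T cell receptor and -0.12 to 0.04 for oxidative phosphorylation genes. Of 296 checks of the 20 genes named for CD4 against CD8, 28 lost the call and 0 turned, as none could in the fits without a brain. The difference between both effects: 0 passed, 1 with all deposited cells and 9 to 26 with a brain left out. The gate overlap, in alternatives chosen after seeing the data, was 69.8 to 80.8%. No paired analysis was possible because the genotypes share no replicate numbers. Alternatives for Foxp3-positive cells and for members split by the gate were not run, as a brain had under 10 cells of a set. Depth limits rare transcripts: 140 cells at a median of 5131 raw UMIs.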
